A study of Mus musculus with 10 samples.

Results

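Igf1r, Rock2, Notch1, Rap1b, Zeb1 and Zeb2 are genes that have been published as targets of miR-139-5p in other tissues, and the question here was whether their RNA falls when miR-139 is expressed in MLL-AF9 cells. The 6 genes were taken as a fixed list, by symbol, from the 52550 genes of the count table, and the rule used no measured value. All 6 were found and all 6 had at least 10 counts over the 10 libraries, the minimum set for calling a gene measured. No member of the list passed the test as lower with doxycycline (DOX), with or without the clone as a block. Of all 19223 genes tested, 0.0052% passed as lower without the block and 5.33% with it. The count of 0 among 6 genes is therefore near the background. Notch1 went the other way: it was 3.38-fold, 3.66-fold and 1.48-fold higher with DOX in clones 1, 2 and 3. It passed the test when the clone was kept as a block, where 7.05% of all genes passed as higher. In the fit without the block it did not pass (edgeR, adjusted p = 0.114). The difference of its change from that in an eGFP control clone did not pass without the block either (edgeR, adjusted p = 0.527).

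The cells were hematopoietic stem and progenitor cells (HSPCs) from WT C57BL/6 mice of 8 to 20 weeks, transformed with a retroviral MLL-AF9 fusion oncogene. The labels list tetR-KRAB, a repressor that DOX releases, for all 10 libraries. In MLL-AF9-i139 a lentiviral pCW-miR-139 construct expresses miR-139 once DOX is added, and each clone was grown from a picked colony. RNA sequencing of 3 such clones covered each clone once without DOX and once after 5 µg/mL DOX, which clones 1 and 2 received for 48 h and clone 3 for 72 h, so that clone 3 and the longer time cannot be told apart. The labels give no culture time for the untreated i139 libraries. MLL-AF9-ieGFP, in which DOX induces eGFP, was 1 clone, harvested at 48 h and 72 h under both treatments, so its 4 libraries hold time points and no separate clones. Nothing says that the replicates came from separate mice, and p-values therefore measure the spread between these libraries.

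A microRNA guides Argonaute to messenger RNAs, mostly through pairing of its seed, bases 2 to 8, with a short match in the 3′ UTR, after which the messenger RNA is translated less and often degraded. miR-139-5p lies in an intron of Pde2a and is known as a tumor suppressor in several tissues. The published targets act in different ways. Igf1r encodes the receptor for insulin-like growth factors, Rock2 a kinase that drives actomyosin contraction, Notch1 a receptor that is cut on ligand binding and then acts in transcription, Rap1b a small GTPase that controls integrin adhesion, and Zeb1 and Zeb2 zinc finger repressors known from the epithelial-mesenchymal transition and, in blood, from lineage decisions.

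The sequences below show which letters of these RNAs could pair with the seed of the microRNA. The mature miR-139-5p of the mouse (RefSeq, GRCm38.p6, chr7:101475382-101475403, + strand) is printed 5′ to 3′ with its seed in capitals.
miR-139-5p: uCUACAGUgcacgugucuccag
The search looked on the sense strand of annotated 3′ UTRs (GENCODE, GRCm38, stop codon left out) for ACTGTAGA (8mer), ACTGTAG (7mer-m8), CTGTAGA (7mer-A1) and CTGTAG (6mer), each counted once as the longest form present. The windows below hold 30 bases each, with the match in capitals, and span all matches of 7 or 8 bases in 5 of the genes.
Igf1r 8mer, chr7:68228986-68229015, + strand: ctgttttaatcACTGTAGAaaagcccctgt
Igf1r 7mer-m8, chr7:68230175-68230204, + strand: ttttcttctacACTGTAGgtgacactctgg
Rock2 7mer-m8, chr12:16978751-16978780, + strand: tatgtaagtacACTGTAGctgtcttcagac
Notch1 7mer-m8, chr2:26457979-26458008, - strand: ctacatgcaaaACTGTAGgtaatgaaaatg
Rap1b 7mer-A1, chr10:117814972-117815001, - strand: aggcttctgcagCTGTAGAttctcactgtg
Zeb2 7mer-A1, chr2:44988447-44988476, - strand: gcttccaggaagCTGTAGAgagggacagaa
Zeb2 7mer-m8, chr2:44987527-44987556, - strand: atttatttcatACTGTAGtgtacagtatta
Zeb2 7mer-m8, chr2:44986646-44986675, - strand: ttgaaatgcagACTGTAGcttatcctttat
Zeb2 7mer-m8, chr2:44985185-44985214, - strand: ttgcacatgacACTGTAGgcttagttctga

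In the longest annotated 3′ UTR, 5 of the 6 genes held at least 1 match of 7 or 8 bases to the miR-139-5p seed. Of 13987 tested genes with an annotated 3′ UTR, 21.7% held such a match and 4.29% held an 8-base match. Zeb2 had the most, 4 matches in 4941 nucleotides, followed by Igf1r with 2 in 7267 nucleotides and Zeb1 with 2 in 2401 nucleotides. Notch1 had 1 match in 1628 nucleotides, beside 2 matches of 6 bases, and Rap1b had 1 in 1940 nucleotides. An 8-base match was present in Igf1r and Zeb1. The longest 3′ UTR of Rock2, 3182 nucleotides, held none of these letters, and the Rock2 window printed above lies in a shorter annotated 3′ UTR of 2214 nucleotides. The 3′ UTR of Igf1r was longer than those of 98.8% of the tested genes, that of Zeb2 longer than 95.7%, that of Rap1b than 70.5% and that of Notch1 than 63.8%. Over all tested genes, those with a match had a median 3′ UTR of 2423 nucleotides and those without one of 834 nucleotides. A match is a description of letters and was not measured as a binding site.

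**Figure D1:**
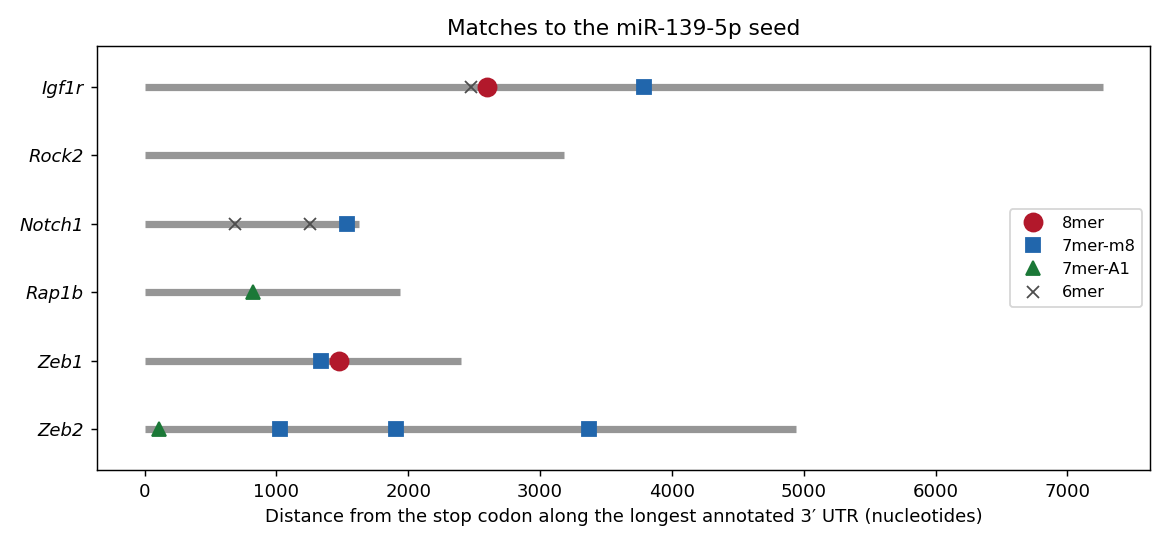
Matches to the miR-139-5p seed along the longest annotated 3′ UTR of each gene; the x axis is the distance from the stop codon in nucleotides, and each symbol is 1 match of the named type. Zeb2 has 4 matches of 7 bases spread over its 3′ UTR and the Rock2 line is empty.

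The induction itself could not be read from the hairpin gene, since Mir139 had 0 counts in every library and long RNA libraries do not hold mature microRNAs. Eif4g2, a translation factor that the study examined as a miR-139 target, gave a scale for the response: without DOX it stood at 1217, 1256 and 1380 normalized CPM (CPM, counts scaled to 1 common library size with TMM, a normalization that sets the bulk of genes equal) in clones 1, 2 and 3, and with DOX at 540, 515 and 822. Eif4g2 itself did not pass the fit without a block (log2 fold change -1.03, edgeR, adjusted p = 0.0865). With the clone block it passed (-1.06, edgeR, adjusted p = 0.0109). A gene at about this fold change can thus miss the threshold in the fit without a block. Library totals lay between 35133308 and 47089725 counts. The labelled progenitor type was checked with 11 markers, of which 10 were tested. Itgam, which encodes the myeloid surface protein CD11b, was barely counted, with 3 counts or fewer in any library. These counts do not measure the protein, and whether they reflect the cells or the counting was not tested. The summed level of the 11 markers, on raw library totals, was 3284 to 4792 CPM in i139 without DOX and 4889 to 7215 CPM with DOX. Of the 10 tested, 5 (Mpo, Ctsg, Fcgr3, Spi1 and the barely counted Cd34) passed as higher in the edgeR fit with the clone block, against 7.05% of all genes. None of the 10 passed as lower there, and none passed without the block. The tested markers that did not pass with the block were Prtn3 at -0.42, Elane at -0.06, Kit at 0.02, Cebpa at 0.17 and Ptprc at 0.46 on the log2 scale. The summed markers of T cells, B cells, erythroid cells, megakaryocytes and epithelium stayed at or under 2.42 CPM in every library, and those of stroma and endothelium at 17.2 to 39.7 CPM, with Col1a1, Col1a2 and Cdh5 at 3 counts or fewer in any library. In bulk RNA, fewer cells of a type and less RNA per cell cannot be told apart, and the part of these marker changes in the values below was not tested.

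Igf1r (chromosome 7, 67952827 to 68233668 of GRCm38, + strand) had the most counts of the 6 genes over the 10 libraries together, 205986. It had 15852 to 25925 counts per library. Without DOX its level was 435, 478 and 617 CPM in i139 clones 1, 2 and 3, and with DOX it was 331, 483 and 659 CPM. The clones kept their order, clone 3 highest and clone 1 lowest, and the groups overlapped, though clone 1 with DOX lay below every untreated library. Clone 1 alone was lower with DOX, at 0.762-fold, while clones 2 and 3 stood at 1.01-fold and 1.07-fold. The fitted log2 fold change was -0.04 with a 95% interval from -0.59 to 0.51 (edgeR quasi-likelihood test, adjusted p = 0.943), which on the linear scale runs from 0.662-fold to 1.42-fold. In MLL-AF9-ieGFP the level was 467 and 497 CPM without DOX and 504 and 557 CPM with DOX, at 48 h and 72 h. With the clone block and without clone 3 the Igf1r change was -0.17 and passed the test (edgeR, adjusted p = 0.049), in a fit that called 20.9% of 18359 genes lower, whereas without clone 1 its sign turned, to 0.06.

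Rock2 (chromosome 12, 16894895 to 16987823, + strand) lay between 142 and 171 CPM in all 10 libraries. Without DOX it stood at 171, 148 and 166 CPM in clones 1, 2 and 3, and with DOX at 150, 142 and 158 CPM. Every clone was slightly lower with DOX, at 0.875-fold, 0.961-fold and 0.952-fold, yet the groups overlapped, because clone 2 without DOX lay under 2 of the libraries with DOX. The log2 fold change was -0.10 (95% interval -0.32 to 0.13, edgeR, adjusted p = 0.613). On the linear scale the interval ends at 0.801-fold on the low side, so a fall to below that level lies outside it. The ieGFP clone had 145 and 143 CPM without DOX and 156 and 146 CPM with DOX. Its close relative Rock1 stood at 172 ± 15.7 CPM without and 183 ± 11.3 CPM with DOX (mean ± SD, n = 3), and it did not pass the test (edgeR, adjusted p = 0.619).

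Zeb2 (chromosome 2, 44983632 to 45117395, - strand) carried the most seed matches of the 6. Its level was 328, 270 and 295 CPM in clones 1, 2 and 3 without DOX and 297, 269.7 and 248 CPM with DOX. Clone 2 was nearly level, at 0.997-fold, and clones 1 and 3 stood at 0.903-fold and 0.84-fold. The groups overlapped, and the log2 fold change was -0.12 (95% interval -0.38 to 0.14, edgeR, adjusted p = 0.579). In ieGFP, Zeb2 was higher at 48 h than at 72 h under both treatments, with 256 and 206 CPM without DOX and 279 and 220.3 CPM with DOX. Exons of Zeb2 share 3.3% of their nucleotides with other annotated genes, among them the antisense gene Zeb2os, which had 0 counts.

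Zeb1 was barely counted in all 10 libraries, and whether this reflects the cells or the counting was not tested. It had 5, 15 and 10 counts in clones 1, 2 and 3 without DOX and 8, 14 and 11 counts with DOX, in sums 30 and 33. In ieGFP it had 12 and 3 counts without DOX and 3 and 3 counts with DOX. At this depth 3 counts correspond to between 0.0637 and 0.0854 CPM on raw library totals, before TMM. Zeb1 lay between 0.0765 and 0.356 normalized CPM, and 4 of the 10 libraries had 5 counts or fewer. The log2 fold change in i139 was 0.21 (edgeR, adjusted p = 0.855) with a 95% interval from -0.97 to 1.40, or from 0.509-fold to 2.63-fold, which is too wide to tell a fall from a rise. Its exons share 1.93% of their nucleotides with antisense gene Gm10125, which had 49 counts in all, and how far reads of the 2 genes were kept apart is not given in the sources used here.

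Rap1b (chromosome 10, 117813871 to 117846035, - strand) was higher with DOX in each i139 clone. It stood at 191, 197 and 211 CPM without DOX and at 255, 234 and 224 CPM with DOX, in clones 1, 2 and 3. The lowest library with DOX lay above the highest without it, and the clones reversed their order, clone 1 being lowest without DOX and highest with it. The change was 1.34-fold, 1.19-fold and 1.06-fold in clones 1, 2 and 3. The log2 fold change was 0.27 with a 95% interval from 0.05 to 0.48 and did not pass the test over all genes (edgeR, unadjusted p = 0.0233, adjusted p = 0.18). In ieGFP the sign was the other one, with 207 and 226 CPM without DOX and 191 and 198 CPM with DOX. The difference between the constructs was 0.41 on the log2 scale (edgeR, unadjusted p = 0.00965, adjusted p = 0.527). Without clone 3 the change in i139 was 0.35 (edgeR, adjusted p = 0.0322) and the difference between the constructs 0.52 (edgeR, adjusted p = 0.024), and both passed. The i139 change did not pass without clone 1 (0.17, edgeR, adjusted p = 0.751) or without clone 2 (0.27, adjusted p = 0.742). With the clone block and all 3 clones it did not pass either (0.26, edgeR, adjusted p = 0.0971). The difference between the constructs did not pass without clone 1 (edgeR, adjusted p = 0.908) or clone 2 (adjusted p = 0.901). Rap1a, the near relative of Rap1b, was at 92.6 ± 6.68 CPM without DOX and 97.5 ± 4.84 CPM with DOX (mean ± SD, n = 3; edgeR, adjusted p = 0.65).

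Notch1 (chromosome 2, 26457903 to 26516663, - strand) changed most. Without DOX it stood at 188, 157 and 129 CPM in clones 1, 2 and 3, and with DOX at 634, 573 and 190.02 CPM. Clones 1 and 2, with DOX for 48 h, were far above every other library, while clone 3, with DOX for 72 h, lay barely above the highest untreated i139 library, at 188 CPM. The ieGFP clone stood at 212 and 196 CPM without DOX and at 191 and 208 CPM with DOX, so clone 3 with DOX lay below all 4 control libraries. The mean in i139 was 158 ± 29.6 CPM without DOX and 466 ± 241 CPM with DOX (mean ± SD, n = 3), and the spread with DOX was that between clone 3 and the others. The log2 fold change was 1.58 ± 0.40 (SE), with a 95% interval from 0.67 to 2.49, and did not pass the test (edgeR, unadjusted p = 0.00391, adjusted p = 0.114). With the clone kept as a block it was 1.42 ± 0.25 (SE) and passed (edgeR, adjusted p = 0.0257). Without clone 3 it was 1.83 (edgeR, adjusted p = 0.000203), and without clone 1 or clone 2, in the fit with no block, it did not pass.

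Across the design, the i139 libraries with and without DOX did not overlap for Notch1 and Rap1b, 2 of the 6 genes, both with the treated libraries higher. That count stood against 12.0% of the 19223 tested genes with all treated libraries higher and 12.8% with all of them lower. In the fit without a block 0 of the 6 genes passed in either direction, against 12 genes or 0.0624% of those tested, 1 of them lower (0.0052%). At an unadjusted p under 0.05, Notch1 and Rap1b passed as higher, as did 11.4% of all genes. With the clone block 1 of the 6 passed, Notch1, against 12.4% of all genes (7.05% higher and 5.33% lower), so the count of 1 is near the background. Without clone 3, Notch1 and Rap1b passed as higher, against 11.6% of 18359 genes called higher in that fit. On the rank of all 19223 log2 fold changes, the share of genes with a lower value was 98% for Notch1, 71.5% for Rap1b, 67.7% for Zeb1, 45% for Igf1r, 40.1% for Rock2 and 37.6% for Zeb2. The median of the 6 was 0.08, beside 0.01 over all genes tested.

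**Figure D2:**
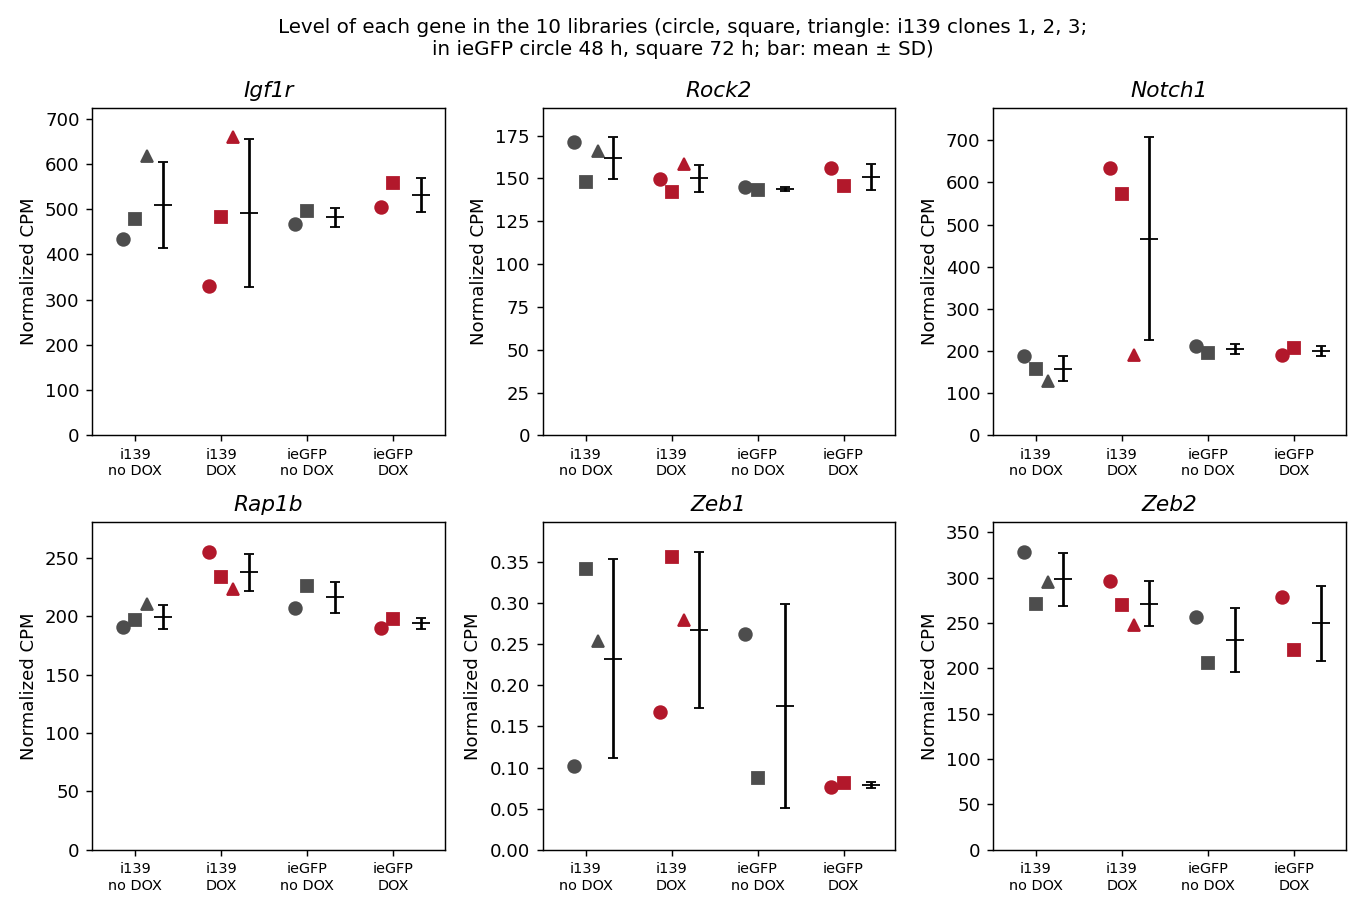
Normalized CPM (y axis, from 0) of each gene in the 10 libraries; each point is 1 library, with DOX in red and without in grey, and the bar is the mean ± SD of the group. Notch1 in clones 1 and 2 with DOX, at 634 and 573 CPM, stands above all other libraries, and Zeb1 stays under 0.36 CPM.

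In MLL-AF9-ieGFP none of the 6 genes passed the test with DOX, and neither did any of the 20269 genes tested (0 genes, 0.0%, edgeR; 259 genes had an unadjusted p under 0.05, and DESeq2 called 1 gene). The log2 fold changes there were 0.14 for Igf1r, 0.07 for Rock2, -0.04 for Notch1, -0.16 for Rap1b, 0.11 for Zeb2 and -1.17 for the barely counted Zeb1. The difference of the DOX effect between the constructs was tested directly and passed for 0 of the 6, against 1 gene or 0.00493% over all genes. For Notch1 it was 1.6 (95% interval 0.43 to 2.77, edgeR, unadjusted p = 0.0122, adjusted p = 0.527). Without clone 3 it was 1.88 for Notch1 (edgeR, adjusted p = 6.23e-05) and passed for Notch1 and Rap1b, against 5.74% of 19753 genes called higher in i139. That fit holds i139 with DOX at 48 h alone, while ieGFP keeps 48 h and 72 h. For Notch1 the difference did not pass without clone 1 (1.46, edgeR, adjusted p = 0.908) or without clone 2 (1.42, adjusted p = 0.901). With the clone block it did not pass either (1.44, edgeR, adjusted p = 0.0874). The 2 pairs of ieGFP libraries come from 1 clone, and the test shares its estimate of the spread with the i139 clones.

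**Figure D3:**
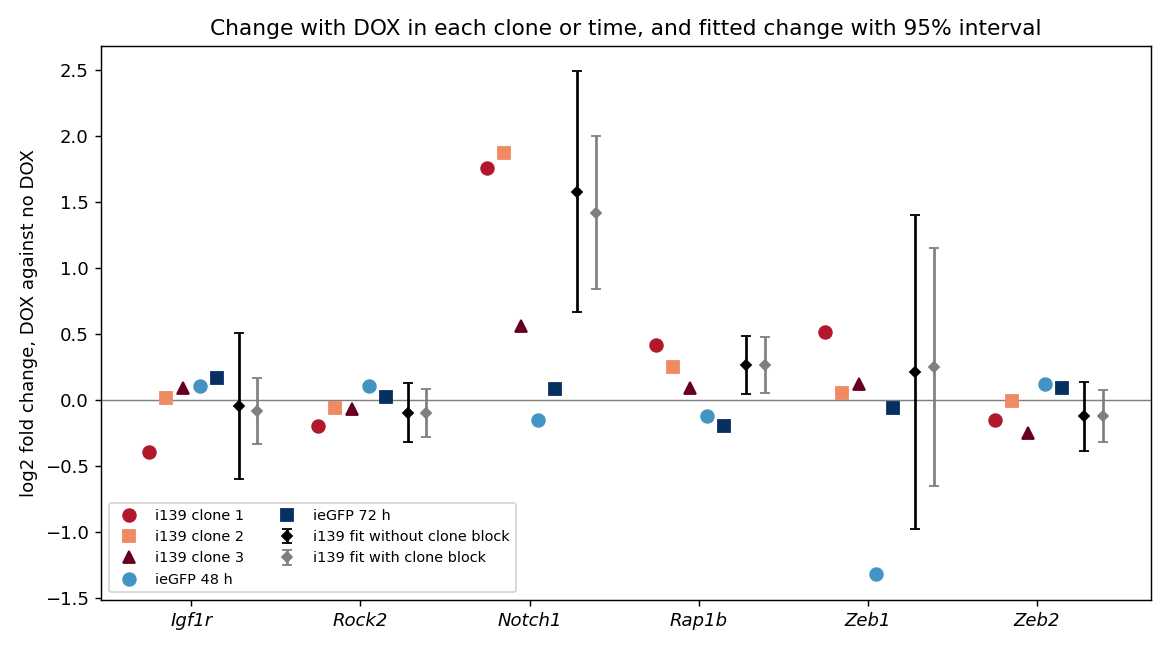
log2 fold change (y axis) of each gene with DOX, for each i139 clone and each ieGFP time, and the fitted i139 change with its 95% interval without (black) and with (grey) the clone block. Only the intervals of Notch1 and Rap1b lie wholly above 0, and the interval of Zeb1 is the widest.

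**Figure D4:**
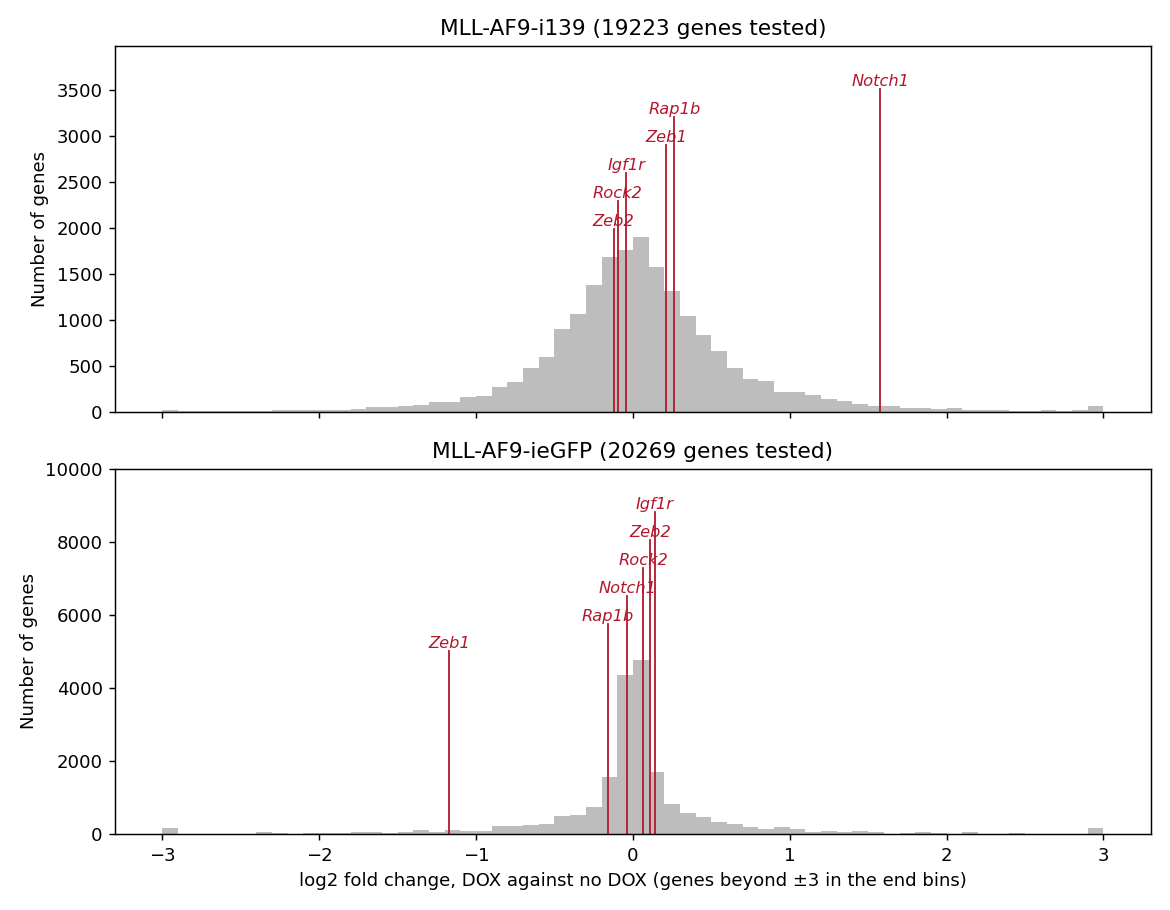
Number of tested genes (y axis) by log2 fold change with DOX (x axis) in MLL-AF9-i139 and in MLL-AF9-ieGFP, with the 6 genes marked by red lines whose height has no meaning. In i139, Igf1r, Rock2 and Zeb2 lie within 0.13 of 0 and Notch1 lies at 1.58, in the upper tail.

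Compared per length of exon, Rap1b was the most abundant of the 6 in i139 without DOX, at 69.2 CPM per kilobase, followed by Igf1r at 30.4, Zeb2 at 14.9, Rock2 at 11.6, Notch1 at 11.1 and Zeb1 at 0.0227 CPM per kilobase. With DOX, Notch1 stood at 32.7 CPM per kilobase, above Igf1r at 29.2, though the libraries of neither group were of one level. Over the 4 groups the order of the levels was within the spread for most neighbours: the ranges of neighbouring groups overlapped throughout for Igf1r, Rock2, Rap1b and Zeb2. For Notch1, all ieGFP libraries with DOX lay above all i139 libraries without DOX, by 191 against 188 CPM at the nearest. For Zeb1, the 2 ieGFP libraries with DOX lay below both without, on 3 counts against 3 and 12.

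Of 31 further genes of the Notch pathway 25 were tested, and with the clone block 4 passed as higher, 0 as lower and 21 did not pass (edgeR), with a list median of 0.31 on the log2 scale. These were the fringe glycosyltransferase Lfng, which tunes ligand choice (log2 fold change 0.67, adjusted p = 0.0228), the ligand Jag2 (1.26, adjusted p = 0.0246), and the coactivators Maml3 (0.37, adjusted p = 0.0368) and Maml2 (1.59, adjusted p = 0.0474). Jag2 was low, at 1.66 ± 0.27 CPM without and 4.04 ± 1.37 CPM with DOX (mean ± SD, n = 3). Maml2 was lower still, at 0.868 ± 0.258 CPM without and 3.04 ± 2.25 CPM with DOX (mean ± SD, n = 3). It was higher in clones 1 and 2 by 2.12 and 1.93 on the log2 scale but stood at -0.12 in clone 3. Notch1 stood at 1.76, 1.87 and 0.56 in clones 1, 2 and 3. Notch2, the nearest relative, was at 149 ± 6.88 CPM without and 183 ± 11.1 CPM with DOX and just missed the threshold with the block (0.31; edgeR, adjusted p = 0.0528). The classical Notch target genes were hardly counted: Hes1 had 19 counts over all 10 libraries, Hey1 18, Heyl 3 and Nrarp 1, and Hey2 was at 0, so the output of the pathway could not be followed by them. In the fit without a block 0 genes of this list or of the 4 lists below passed. The counts with the block, here and below, stand beside 12.4% of all 19223 genes called in that fit, whose median log2 fold change was 0.01.

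Exons of Notch1 share 9.76% of their nucleotides with genes on the opposite strand, chiefly 0610009E02Rik. That gene had 397, 332 and 80 counts in clones 1, 2 and 3 with DOX and 141, 142 and 53 without, and with the clone block it too passed as higher, at 1.23 on the log2 scale (edgeR, adjusted p = 0.0255). Its 1514 counts over the 10 libraries compare with 113058 of Notch1. The strand setting of the counting is not given in the sources used here, so reads of the 2 genes may not have been told apart.

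The genes around Igf1r moved in both directions. Of 22 genes of the insulin-like growth factor axis 18 were tested, and with the block 2 passed as higher and 2 as lower (list median 0.14). Igfbp4, a secreted binding protein of the ligands, was at 164 ± 70.0 CPM without and 249.7 ± 58.6 CPM with DOX (0.67; edgeR, adjusted p = 0.0393), and the adaptor Shc1 rose by 0.37 (adjusted p = 0.0448). Igf2r, which clears IGF2, fell by 0.40 (adjusted p = 0.0459), and Grb10, an adaptor that restrains the receptor, fell by 0.69 (adjusted p = 0.0466). The insulin receptor Insr, the closest relative, stood at 172 ± 0.54 CPM without and 216 ± 34.5 CPM with DOX and did not pass (0.33; edgeR, adjusted p = 0.0842). The ligand genes Igf1 and Igf2 had 8 counts and 1 count in all 10 libraries.

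Around Rock2, 21 of 24 genes of the actomyosin list were tested, and 1 passed as higher and 1 as lower with the block (list median 0.10). Myh9, the heavy chain of the nonmuscle myosin on which this kinase acts through the light chain, was at 1132 ± 71.9 CPM without and 1642 ± 341 CPM with DOX (0.53; edgeR, adjusted p = 0.0299). Mylk, a light chain kinase, fell by 0.99 (adjusted p = 0.018), from 12.7 ± 4.18 to 6.47 ± 2.64 CPM. The light chain genes Myl9, Myl12a and Myl12b are listed at 0 in every library.

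Around Rap1b, all 21 genes of the Rap1 list were tested, and with the block 4 passed as higher and 2 as lower (list median 0.10). The 4 with the smallest adjusted p were Itgb2, Rassf5, Tln1 and Itgb1. Itgb2, the beta chain of leukocyte integrins, was at 197 ± 25.6 CPM without and 547 ± 246 CPM with DOX (1.37; edgeR, adjusted p = 0.0229), again with clones 1 and 2 (1.73 and 1.69) above clone 3 (0.63). Rassf5, a Rap1 effector, rose by 0.72 (adjusted p = 0.0264), and Tln1, the talin that links integrins to actin, by 0.48 (adjusted p = 0.0357). Itgb1, the beta chain of another integrin family, fell by 0.36 (adjusted p = 0.038).

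Around Zeb1 and Zeb2, 12 of 20 genes were tested, since 8, among them Snai2, Twist1, Epcam and Krt18, had fewer than 10 counts. Vim, an intermediate filament gene known as a mesenchymal marker, was the one that passed with the block: it fell by 0.60 (edgeR, adjusted p = 0.0369), from 169 ± 23.4 to 110.4 ± 13.6 CPM. The list median was -0.13. Cdh1, the epithelial cadherin that both ZEB factors are known to repress, was at 0.381 ± 0.115 CPM without and 0.271 ± 0.0729 CPM with DOX and did not pass. The corepressor Ctbp1 was at 107 ± 5.08 and 114 ± 10.2 CPM (0.10; edgeR, adjusted p = 0.467).

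**Figure D5:**
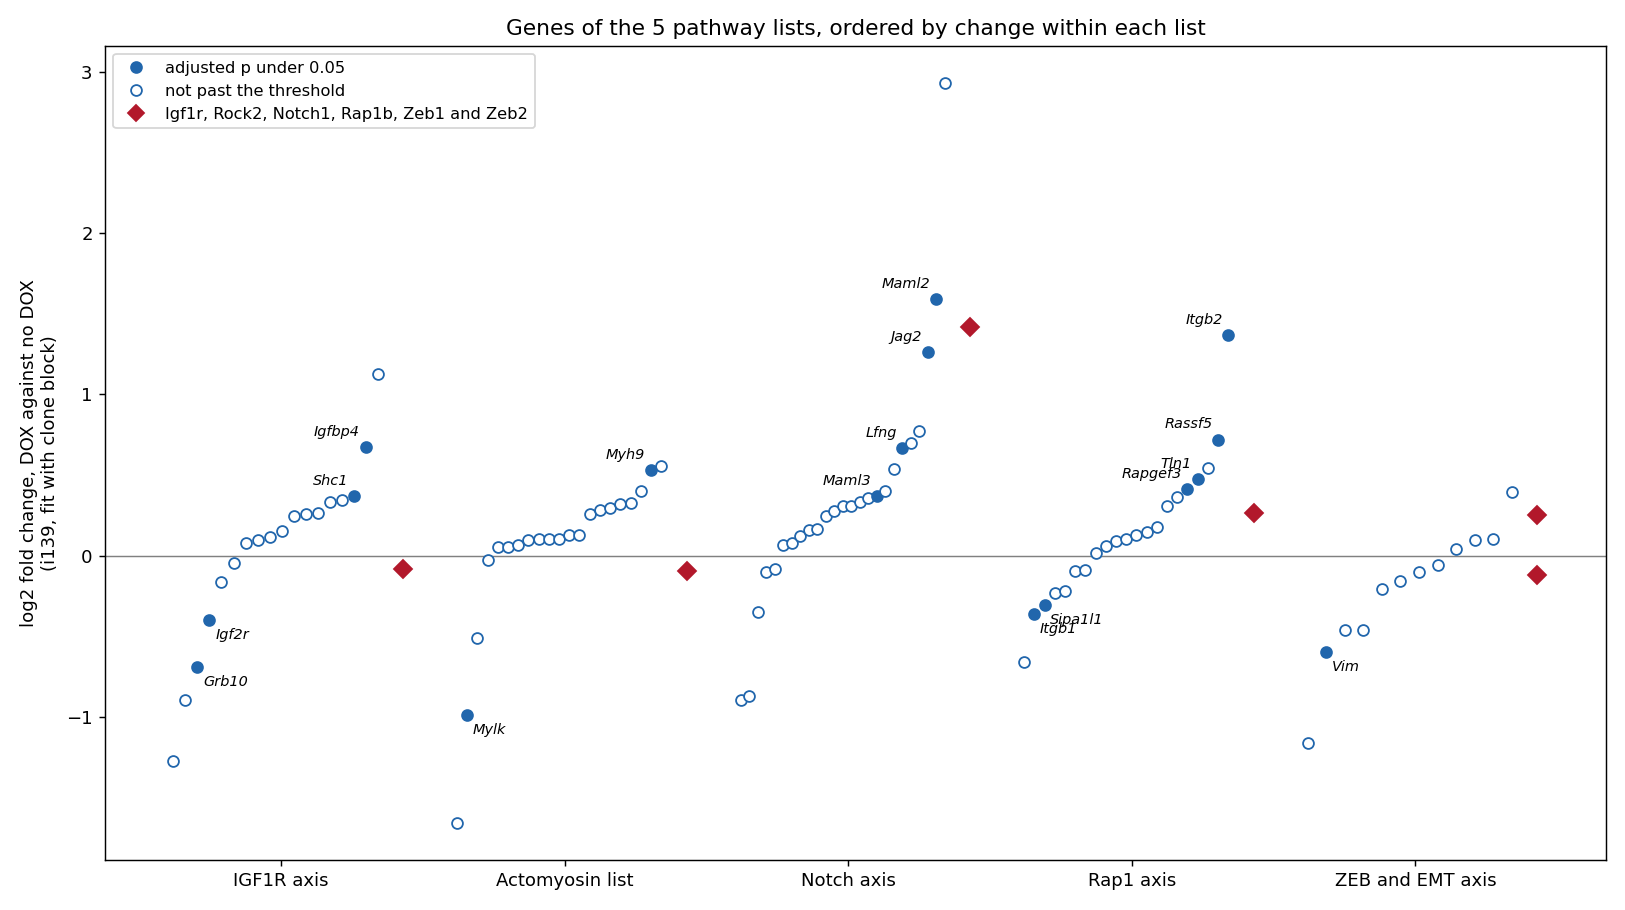
log2 fold change with DOX in i139 (y axis, fit with the clone block) of each tested gene in the 5 pathway lists, ordered by value within a list; filled circles passed an adjusted p of 0.05, open circles did not, and red diamonds are the published targets. The Notch list reaches highest and all of its filled circles lie above 0.

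The genes most like each published target over the 10 libraries were found by Pearson correlation of log2 CPM among 10816 genes with an average of at least 1. The 10 points share clones, depth and treatment, and the values are given as a description. Closest to Notch1 were Neurl3 (r = 0.996), Cpd (r = 0.994) and Cyb5r4 (r = 0.993), whose log2 fold changes in i139 were 1.07, 0.83 and 0.44. Closest to Igf1r were Pcgf2 (r = 0.975), Spats2 (r = 0.967) and Ripor2 (r = 0.959), and closest to Rock2 were Rngtt (r = 0.945), Cers6 (r = 0.940) and Eml5 (r = 0.939). Rap1b was followed by Manbal (r = 0.942), Gngt2 (r = 0.937) and Golph3 (r = 0.930), and Zeb2 by Pot1b (r = 0.960), Ago3 (r = 0.955) and Ints6 (r = 0.938). Zeb1 was under the expression minimum. Among the published targets themselves, Notch1 and Rap1b went together (r = 0.741), as did Rock2 and Zeb2 (r = 0.676), while Notch1 and Igf1r went in opposite directions (r = -0.644). The 5 genes did not follow 1 common profile.

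The log2 fold changes can be set beside the number of seed matches. Zeb2, with 4 matches of 7 bases, stood at -0.12, Igf1r with 2 at -0.04, Zeb1 with 2 at 0.21 on its few counts, Notch1 and Rap1b with 1 each at 1.58 and 0.27, and Rock2, with none in its longest 3′ UTR, at -0.10. Over all tested genes the medians differed little. The median was 0.0144 for the 3038 genes with at least 1 match of 7 or 8 bases and 0.0151 for the 10949 genes with none. For the 600 genes with an 8-base match it was -0.0166. For the 43 genes with at least 4 matches, as Zeb2 has, the median was -0.07 in i139 and -0.01 in ieGFP, with a median 3′ UTR of 6765 nucleotides.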

How the data were processed

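Total RNA of 10 mouse libraries was sequenced after ribosomal depletion (KAPA RNA HyperPrep with RiboErase, NovaSeq). STAR alignment to GRCm38 and featureCounts on GENCODE, run by the authors, gave the deposited raw counts, before the removal of low rows that their methods state. Submitters' notes name STAR 2.5.3e, featureCounts 1.6.0, FastQC 0.11.8 and DESeq2 1.22.2. A further 14 columns, of other samples, were not used, and 52403 of 52550 identifiers matched a symbol.

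Here edgeR 4.0.16 (R 4.3.3) was run on genes with at least 10 counts in the libraries of a fit: TMM, quasi-likelihood test, Benjamini-Hochberg adjustment over all genes, threshold 0.05. The i139 effect used 6 libraries, with no clone term. Standard errors and 95% intervals follow from the F statistic and its degrees of freedom. The ieGFP effect and the difference between constructs came from 1 fit of 4 groups over 10 libraries. CPM are TMM-normalized, except the summed markers and the level of 3 counts, which use raw library totals. The change in 1 clone is its log2 CPM (prior count 2) with DOX minus that without. Seed matches used GENCODE annotation of GRCm38 (release M21, later than the one the authors name) and RefSeq for the microRNA (Python 3.11.15, pandas 2.3.3).

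Clone numbers mark the same clone with and without DOX. Deviations from the group means correlated within clones 1, 2 and 3 (r = 0.378, 0.285 and 0.411), so the clone was also fitted as a block. The scripts were tested on simulated data. No 2 libraries of a group agreed within sampling noise.

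The 6 genes, the pathway lists and the tests were chosen with earlier results of these data known. Genes were named by rule: the 6 genes, their closest relatives, of each list up to 4 genes with the smallest adjusted p in the blocked fit (up to 2 by level where fewer passed), and the 3 genes most like each target. Igf1, Igf2, Cdh1, the genes at or near 0, 0610009E02Rik and Eif4g2 are named outside that rule. Alternatives were DESeq2 1.42.0, RLE size factors, other count filters, the block, a fit of 10 libraries and leaving out each clone or ieGFP time.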

Additional observations from a re-analysis of the deposited data

Results flagged for a closer look

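For 4 of the 6 genes, all 3 i139 clones moved one way with DOX and both ieGFP pairs the other way, as did 10.2% of the 20269 genes tested. The difference of the DOX effect, i139 minus ieGFP on the log2 scale, was -0.18 for Rock2, 0.41 for Rap1b, 1.37 for Zeb1 and -0.25 for Zeb2. The test of this difference over all genes (edgeR) gave adjusted p-values of 0.685 for Rock2, 0.527 for Rap1b, 0.659 for Zeb1 and 0.701 for Zeb2, so none passed. The Rock2 and Zeb2 values are small: Zeb2 in clone 2 stood at 0.997-fold. The Zeb1 value rests on 3 counts with DOX and 12 without at 48 h in ieGFP.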

How the results depend on the processing

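The count of genes called in MLL-AF9-i139 depended on the model: 12 in the fit without a block, 1556 with DESeq2, 562 with no filter, 6 with at least 10 counts in 3 libraries, 2381 with the replicate block and 1234 in the fit of all 10 libraries. Leaving out 1 clone gave 0 to 3981 calls without the block (1 without clone 1, 0 without clone 2, 3981 without clone 3) and 324, 580 and 7974 with the block and without clones 1, 2 and 3. Of the 6 published targets, 0 were called higher in the fit without a block, 1 (Notch1) with DESeq2, no filter, the replicate block, the fit of all 10 libraries and the block without clone 1 or clone 2, and 2 (Notch1 and Rap1b) without clone 3, with or without the block. Leaving out 1 clone without the block gave 0 to 2 called higher. The count called lower was 0 in all 12 alternatives except the block without clone 3, with 1 (Igf1r). In MLL-AF9-ieGFP, DESeq2 and no filter each called 1 gene, against 0. The difference between the constructs gave 1 gene without a block, 83 with DESeq2, 71 with no filter, 0 with at least 10 counts in 3 libraries, 38 with the replicate block and 0 to 2011 with 1 clone or ieGFP time left out, of which 2011 without clone 3, where 2 targets were called higher (0 to 2 over the left-out settings).

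The Notch1 change in i139 lay between 1.17 and 1.83 in 12 alternatives and passed in 8. With 1 clone left out and no block, the Igf1r change ran from -0.15 (without clone 3) to 0.061 (without clone 1), a turn of sign, and with the block it was 0.056 without clone 1. Notch1 in ieGFP ran from -0.15 without the 72 h libraries to 0.068 without the 48 h libraries, also a turn of sign. Seed matches were present in 5 of 6 genes in the longest 3′ UTR, in 6 over all annotated 3′ UTRs, in 5 with 6-base matches and in 2 with 8-base matches alone. DESeq2 gave no adjusted p for Zeb1 in i139. The cause of these shifts was not tested. Low counts limit Zeb1, which rests on 3 to 15 counts a library. With 3 clones, clone 3 and the 72 h treatment are one and the same.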
